A study of Mus musculus with 2 samples.

Results

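The core spliceosome proteins are the structural subunits of the small nuclear ribonucleoproteins (snRNPs) and their closest partners. Their genes were taken from the platform's probe annotation by name: single symbols that start with Prpf, Sf3a, Sf3b or Snrp, or are Lsm followed by digits, plus Cdc5l, Ik, U2af1, U2af2 and Plrg1. The rule gave 45 genes with 107 probe sets, of 18193 genes named by 1 symbol on the array. Transcript levels were measured on 2 Affymetrix arrays of mouse cerebral cortex. The wild-type array was hybridised with an equal mix of total RNA from 3 males, and so was the second array, whose sample title carries the letters KO in a study named for Gnmt knockout mice. All the mice were 4 weeks old and of strain 129/B6. The genotype entry of the second sample reads wild-type, so it is called the knockout-labelled pool here. The sources used here do not give the Gnmt allele or how it was made.

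Introns are cut out of a transcript by the spliceosome, which is built anew on each intron. The U1 snRNP marks the start of the intron and the U2 snRNP its branch site, then the tri-snRNP of U4, U6 and U5 joins, and the Prp19 complex enters as the machine becomes active. The U1, U2, U4 and U5 snRNPs each carry a ring of Sm proteins, and U6 carries a ring of related Lsm proteins. These genes are transcribed in all cells, and neurons add a variant Sm protein, SmN, encoded by Snrpn. Gnmt encodes glycine N-methyltransferase, which uses S-adenosylmethionine, and the Sm proteins are themselves methylated from the same donor by the enzyme Prmt5 before they are loaded onto snRNA.

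Each pool had a single array, so no difference could be tested and each ratio describes these pools alone. Gnmt itself had signals of 10.0 (wild-type) and 21.5 (knockout-labelled) units by its only probe set. Both lay below the floor of 64.2 units under which a signal was not counted as measured, so Gnmt could not serve as a check of the labels. The cortical neuron markers were present at like sums, 51018.0 and 51045.1 units over 5 genes with a probe set. Most of both sums came from Snap25, at 28236.9 and 26418.0 units, and Gad1, at 13913.8 and 15789.9. The dimmer Neurod6 was 3.04-fold lower and Tbr1 2.08-fold higher in the knockout-labelled pool. Anterior pituitary markers differed: 7 of 8 had a probe set, and their signals summed to 31369.5 units in the wild-type pool and 726.3 in the knockout-labelled pool. None of the 7 was listed at 0, and the lowest in the knockout-labelled pool was Fshb at 1.6 units. The 3 astrocyte markers summed to 11321.5 and 6145.4 units and were all lower in the knockout-labelled pool by brightest probe sets, though their median was 0.34 by second brightest ones. The 3 microglia markers summed to 2245.3 and 1048.0 units, with C1qa at -1.81, P2ry12 at -1.30 and Cx3cr1 at 1.97 as log2 ratios. Xist, the RNA of the inactive X chromosome, gave 49.6 and 2560.3 units in pools that are both labelled male. Y-linked genes were measured in both pools, such as Eif2s3y at 879.8 and 989.0 units and Kdm5d at 355.4 and 198.9. The part of these differences in the ratios of the spliceosome genes was not tested. The 3′ to 5′ signal ratio of the Gapdh control probe sets was 0.932 and 1.02, and that of beta-actin was 3.71 and 3.76, although the 3′ signal of beta-actin itself was 9207.1 and 25266.7 units. The ratio of the transferrin receptor was 23.0 and 2.45, with 5′ signals below the floor in both pools.

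Of the 45 core spliceosome genes, 44 were measured on both arrays, and their middle lay where that of all genes lay while their lower tail was longer. Ratios are given as log2 of knockout-labelled over wild-type signal, and their median was -0.07 over the 44 genes, against -0.06 over all 12251 measured genes. The SD was 0.78 against 0.64, and the lower quartile was -0.81 against -0.44, while the upper quartiles were 0.25 and 0.31. By the brightest probe set of each gene, 13 of 44 members (29.5%) lay 1.5-fold or more toward the wild-type pool, that is, had the lower signal in the knockout-labelled pool, where 18.3% of all genes did. Another 5 of 44 were at least 1.5-fold higher (11.4%), beside 12.5% of all genes. The probe sets of Prpf4b, counted as higher, and Prpf38a, counted as lower, differ in sign, and without both the counts were 12 lower and 4 higher of 42. Without Cdc5l and Ik, which were known to be low from earlier results of these data when the rule named them, 11 of 42 were lower (26.2%). Of the full 44, 26 lay within 1.5-fold. At 2-fold, 6 of 44 members were lower (13.6%) against 6.74% of all genes, and 1 was higher against 3.47%. The 6 lower include Cdc5l and Ik. The counts at 1.5-fold were 13 and 5 with no centring, with quantile normalization and with loess as well. In bulk tissue, fewer cells of a type and less RNA per cell cannot be told apart.

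**Figure D1:**
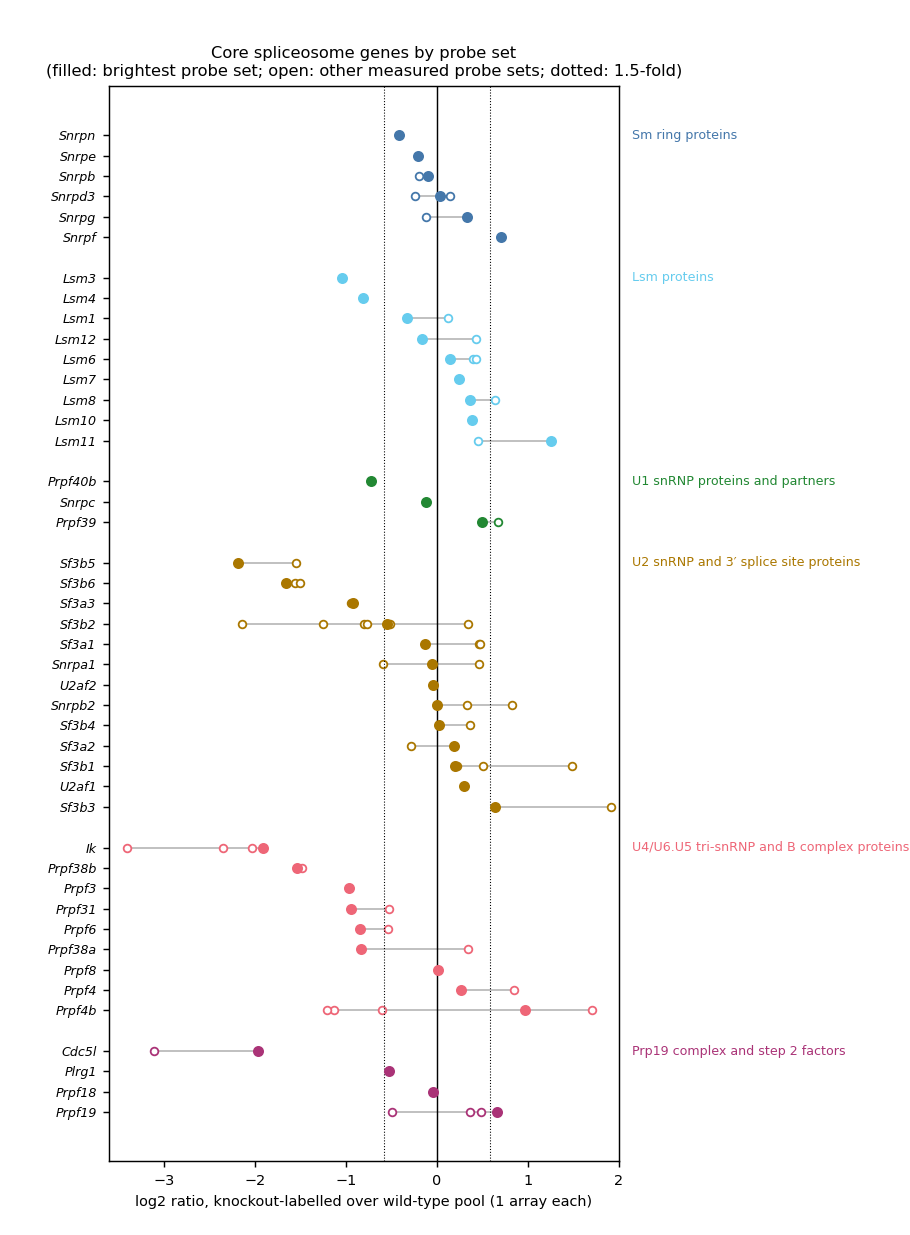
Log2 of knockout-labelled over wild-type signal (horizontal axis, 1 array each) for every measured probe set of the 44 core spliceosome genes, grouped by role, with the brightest probe set filled, the others open and 1.5-fold marked by dotted lines. Ik, Cdc5l, Sf3b5, Sf3b6, Prpf38b and Sf3a3 have every probe set beyond the lower line, while the probe sets of Prpf4b lie on both sides.

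The agreement of probe sets that target the same gene was the only measure of precision that these arrays gave. Over 5375 genes with 2 or more measured probe sets, this error had an SD of 0.58 on the log2 scale, or 1.49-fold. It measures how probe sets differ within a gene, not the spread between mice. A ratio beyond 2 SD, 1.15 in either direction, was found for 6 members: Sf3b5, Cdc5l, Ik, Sf3b6 and Prpf38b on the lower side and Lsm11 on the higher. The 5 lower make 11.4% of the members, against 4.60% of all genes, and the 1 higher makes 2.27% against 2.17%. Cdc5l and Ik, 2 of the 5 lower, were known to be low when the rule named them, which raises that share. Of the members, 29 had 2 or more measured probe sets and 15 rested on 1. The 2 brightest probe sets had the same sign in 19 of these 29, 65.5% against 66.6% over all genes. Every measured probe set lay 1.5-fold or more on the lower side in 6 of the 29 members (20.7%), a pattern seen in 6.64% of all such genes. Without Cdc5l and Ik it was 4 of 27 (14.8%). Only Sf3b3 had all of its probe sets at least 1.5-fold higher, 1 of 29, against 3.83% of all such genes.

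**Figure D2:**
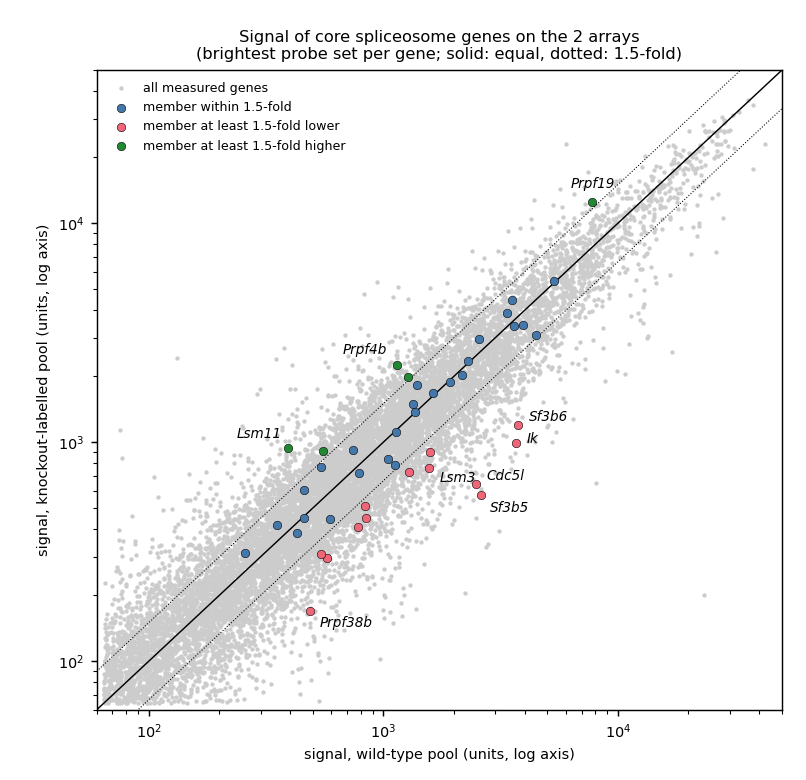
Signal of each gene's brightest probe set in the wild-type pool (horizontal, units, log axis) and the knockout-labelled pool (vertical, units, log axis), with all measured genes in grey and core spliceosome genes in colour. The members run from 257.0 to 7787.5 units in the wild-type pool, and those at least 1.5-fold lower include bright genes such as Sf3b6 and Ik.

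The Sm ring genes had nearly the same signal in both pools. Of 6 measured, 5 lay within 1.5-fold, 0 were lower and 1 was higher (16.7%), beside 18.3% and 12.5% of all genes. Their median of -0.03 had no stable sign, since it was 0.03 with quantile normalization and 0.05 with loess. Snrpb, which encodes the SmB proteins, gave 3596.7 units in the wild-type and 3380.4 in the knockout-labelled pool, a log2 ratio of -0.10, and its other probe set gave -0.20. Snrpn, encoding the neuronal SmN that takes the place of SmB, gave 590.3 and 445.7 units and was the lowest of the group at -0.42. Its 6 further probe sets also name Snurf and were not used. Snrpd3 and Snrpe, which encode SmD3 and SmE, had 0.03 and -0.21. Snrpg, encoding SmG, had 0.33 by its brightest probe set and -0.12 by the other. The group's only member beyond 1.5-fold was Snrpf, encoding SmF, at 552.6 and 914.5 units by its 1 probe set, 1.64-fold higher in the knockout-labelled pool. Snrpd1 and Snrpd2, as well as Snrpa of the U1 snRNP and Lsm5, have only probe sets that name other genes too, and fall outside the rule.

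Among the Lsm genes the signals diverged within the ring that binds U6. Of 10 Lsm genes, 9 were measured, with a median of 0.15. By 1.5-fold 2 were lower (22.2%) and 1 higher (11.1%), near the 18.3% and 12.5% of all genes. Lsm3 gave 1559.5 units in the wild-type and 762.3 in the knockout-labelled pool, 2.06-fold lower, and Lsm4 gave 1574.6 and 905.6 units, 1.75-fold lower. Each of these genes has 1 probe set. Lsm2 gave 133.9 and 43.9 units, the second of them below the floor, which makes it at least 2.1-fold higher in the wild-type pool. Lsm6, Lsm7 and Lsm8, other proteins of the U6 ring, went slightly the other way at 0.15, 0.24 and 0.37, and all 3 measured probe sets of Lsm6 and both of Lsm8 were positive. The cytoplasmic ring that starts mRNA decay holds Lsm1 in place of Lsm8, and Lsm1 had -0.33, with 0.12 by its other probe set.

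The 2 Lsm genes of another particle, the U7 snRNP that processes histone mRNA ends, were on the higher side. Lsm11 gave 391.0 units in the wild-type and 936.8 in the knockout-labelled pool, 2.38-fold higher and the highest ratio of all members at 1.25. The other Lsm11 probe set was positive but smaller, at 0.45, with 143.8 and 197.7 units. Lsm10 had 458.2 and 606.5 units by its only probe set, a log2 ratio of 0.39. Lsm12 had -0.16 by its brightest probe set and 0.43 by the other measured one.

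Only 3 members belong to the U1 snRNP and its partners, and they ran from lower to higher. Snrpc, which encodes the U1-C protein that helps hold the 5′ splice site, had 2173.9 and 2019.2 units and a log2 ratio of -0.12. Prpf40b, a U1 partner that bridges to the branch site proteins, had 833.9 and 509.8 units by its 1 probe set and was 1.65-fold lower in the knockout-labelled pool. Prpf39, also a U1 partner, had 542.6 and 773.5 units, within 1.5-fold at 0.50, with 0.67 by its second probe set.

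The subunits of SF3b and SF3a, the parts of the U2 snRNP that clamp the branch site, had unlike ratios. Of the 13 genes of U2 and 3′ splice site recognition, 9 were within 1.5-fold. Another 3 were lower (23.1%) and 1 was higher (7.69%), near the 18.3% and 12.5% of all genes. Their median of -0.04 turned to 0.01 with quantile normalization and to 0.02 with loess. The lowest were Sf3b5 and Sf3b6, both small SF3b subunits. Sf3b5, the smallest, gave 2598.2 units in the wild-type and 572.3 in the knockout-labelled pool, 4.58-fold lower and the lowest ratio of all members at -2.19. A second Sf3b5 probe set gave 1090.3 and 375.8 units, a ratio of -1.55. Sf3b6, whose protein lies next to the branch site, gave 3764.3 and 1199.6 units and was 3.16-fold lower. Its 3 measured probe sets lay close together, from -1.66 to -1.50, whereas a further, dim probe set was below the floor in both pools.

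Of the other SF3b subunits that are members, 1 was higher and 3 were within 1.5-fold. Phf5a, an SF3b subunit outside the rule, had 1331.8 and 1470.1 units, a ratio of 0.13. Sf3b3, a scaffold of the complex, gave 1269.5 units in the wild-type and 1995.1 in the knockout-labelled pool, 1.56-fold higher. Its second probe set gave 174.1 and 657.5 units, a ratio of 1.91. Sf3b1, the subunit that surrounds the branch site, had 3353.4 and 3877.6 units and a ratio of 0.20, and its 4 probe sets were all positive, up to 1.49 for the one with 1566.1 and 4433.9 units. Sf3b4 had 2305.7 and 2359.3 units, a ratio of 0.02. Sf3b2 leaned lower, with 4478.2 and 3081.6 units and a ratio of -0.55, just inside 1.5-fold. Of its 7 probe sets 6 were negative, down to -2.14, and the dimmest, with 77.9 and 99.1 units, was at 0.34.

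**Figure D3:**
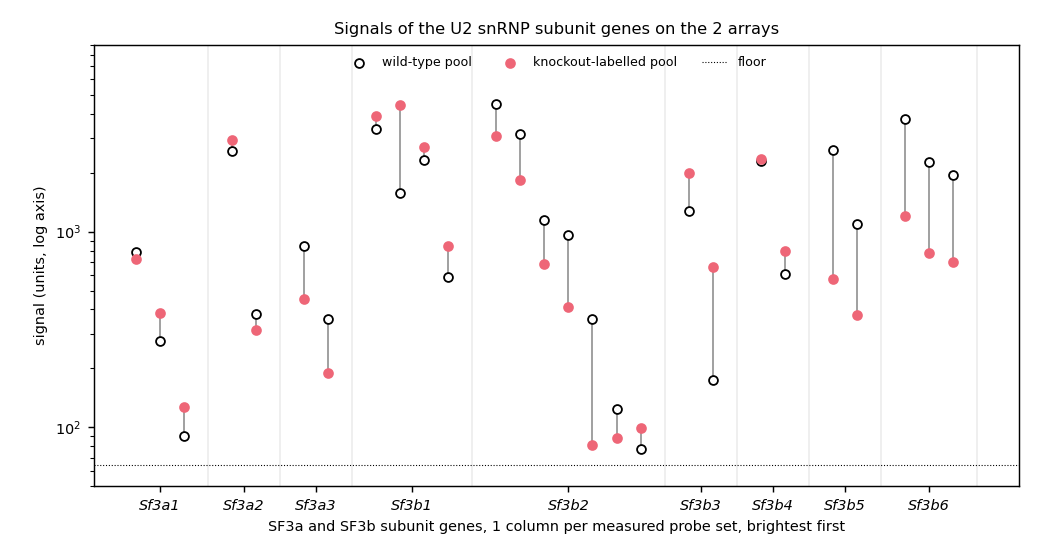
Signals (units, log axis) of every measured probe set of the SF3a and SF3b subunit genes that are members. The wild-type pool is open and the knockout-labelled pool filled, with 1 column per probe set and the brightest first. All probe sets of Sf3a3, Sf3b5 and Sf3b6 are lower in the knockout-labelled pool and those of Sf3b1 and Sf3b3 are higher.

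Of the SF3a trio, which joins SF3b to the U2 particle, Sf3a3 stood apart from its partners. Sf3a3 gave 846.9 units in the wild-type and 451.1 in the knockout-labelled pool, 1.89-fold lower. Its other probe set, a dimmer one, gave 359.4 and 188.8 units and a ratio of -0.94. Sf3a1 and Sf3a2 had -0.13 and 0.19, with other probe sets between -0.28 and 0.48. The U2 proteins that bind the snRNA itself differed little by brightest probe sets: Snrpa1 had 1926.1 and 1879.6 units, and Snrpb2 had 1359.0 and 1368.7. Other probe sets had 0.46 and -0.59 for Snrpa1, and 0.83 and 0.33 for Snrpb2. The 3′ splice site pair was within 1.5-fold. U2af2, which reads the polypyrimidine tract, had 1137.5 and 1112.2 units, and U2af1, which reads the AG at the intron end, had 743.7 and 921.6.

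The lowest group median among the members was that of the tri-snRNP and B complex proteins, -0.84 over 9 genes. By brightest probe sets 2 were within 1.5-fold, 6 were lower (66.7%) and 1, Prpf4b, was higher (11.1%), beside 18.3% and 12.5% of all genes. Leaving out Ik, known to be low when the rule named it, 5 of 8 were lower (62.5%), with a median of -0.83. Without Prpf4b and Prpf38a, whose probe sets differ in sign, 5 of 7 were lower and 0 higher. The median over all 9 lay between -0.94 and -0.80 under the other scalings and was -0.54 by second brightest probe sets, which 7 of the genes have. Ik, whose protein RED belongs to the B complex formed before activation, had 4 measured probe sets, all at least 1.5-fold lower. It gave 3682.8 units in the wild-type and 990.1 in the knockout-labelled pool, 3.75-fold lower. Its other probe sets gave 3754.4 and 928.1 units, 2891.0 and 572.9 units, and 1797.0 and 171.8 units. The last of these, the only 1 of the 4 without a suffix for shared or alternative transcripts, had the largest difference, with a ratio of -3.40.

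The Prpf38 proteins enter at the same stage. Prpf38b gave 487.6 units in the wild-type and 169.3 in the knockout-labelled pool, 2.90-fold lower, and its second probe set gave 474.1 and 171.7 units. Prpf38a had 541.6 and 307.6 units, 1.78-fold lower, but its other measured probe set, with 194.5 and 248.9 units, had 0.34. Another Prpf38a probe set, with 56.8 and 165.3 units, was under the floor in the wild-type pool and had a knockout-labelled signal at least 2.55-fold higher, so the probe sets of this gene do not share a direction.

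Within the U4/U6 and U5 particles 3 of 5 genes were lower. Prpf3, a U4/U6 protein, gave 576.1 and 296.5 units by its 1 probe set, 1.96-fold lower in the knockout-labelled pool. Prpf31, which bridges U4/U6 and U5, gave 776.6 and 409.2 units, 1.91-fold lower, with -0.52 by its other probe set. Prpf6, the U5 protein on the other side of that bridge, gave 1288.8 and 727.7 units, 1.79-fold lower, with -0.54 by its second probe set. Prpf8, the large U5 protein that holds the catalytic centre, was equal in both pools at 5360.1 and 5424.8 units. Prpf4, the partner of Prpf3 in U4/U6, had 257.0 and 311.6 units, a ratio of 0.27, with 0.85 by its other probe set. Snrnp200, Eftud2, Snrnp40 and Txnl4a of U5, with Sart1 and Usp39 of the tri-snRNP, fall outside the rule. By brightest probe sets they lay within 1.5-fold, from -0.47 (Eftud2) to -0.04 (Usp39). Snrnp27 of the tri-snRNP was lower and Ddx23 of U5 higher, as given below.

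Prpf4b, a kinase that acts on the tri-snRNP, had probe sets in opposite directions. Its brightest gave 1140.5 units in the wild-type and 2258.2 in the knockout-labelled pool, 1.96-fold higher. The next, almost as bright, gave 1224.8 and 563.0 units, a ratio of -1.13. Of its 5 measured probe sets 2 were higher, at 0.97 and 1.70, and 3 were lower, between -1.21 and -0.60. The range of 2.90 between them was the largest of any member, against a median range of 0.58, so no direction is given for this gene.

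Of the Prp19 complex and step 2 factors, Cdc5l was far lower and Prpf19 somewhat higher. Cdc5l, a core protein of the complex that stays with the active spliceosome, gave 2486.0 units in the wild-type and 646.2 in the knockout-labelled pool, 3.88-fold lower. A second probe set gave 752.2 and 87.6 units, 8.66-fold lower. Prpf19, the ubiquitin ligase that names the complex, gave 7787.5 and 12440.9 units, 1.58-fold higher. Its other measured probe sets had 0.49, 0.37 and -0.49, none of them beyond 1.5-fold. Plrg1, another core protein, had 1117.6 and 784.7 units and a ratio of -0.52. Prpf18, which acts in the second catalytic step, had 457.5 and 448.7 units.

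Cdc5l lies on chromosome 17, as Gnmt does, with 42 protein-coding genes between them in the RefSeq gene order of GRCm38.p6. Of these, 35 were measured with a median of -0.13. By 1.5-fold or more 9 of the 35 were lower and 2 higher, beside 18.3% and 12.5% of all genes. The lowest was Mea1 at -1.80, so Cdc5l at -1.96 had a lower ratio than any measured gene between it and Gnmt. Cdc5l was known to be low when the rule named it. The 3 other members on that chromosome were Snrpc, U2af1 and Lsm2.

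Upstream sequences are shown for some members at either end, of which Sf3b6 and Sf3b3 encode subunits of the same complex, SF3b. Cdc5l, Sf3b6 and Prpf38b were lower by all measured probe sets, and Sf3b3 was higher. Each line gives the 250 bases before the gene's start in RefSeq on GRCm38.p6, 5′ to 3′ on the gene's strand. Capitals mark matches, on either strand, to CCGGAAG (an ETS factor motif), TGACGTCA (the cAMP response element) and CCAAT. The regions are chr17:45433708-45433957 (minus strand) for Cdc5l, chr12:4817358-4817607 (plus) for Sf3b6, chr3:108911730-108911979 (minus) for Prpf38b and chr8:110846804-110847053 (minus) for Sf3b3.
Cdc5l: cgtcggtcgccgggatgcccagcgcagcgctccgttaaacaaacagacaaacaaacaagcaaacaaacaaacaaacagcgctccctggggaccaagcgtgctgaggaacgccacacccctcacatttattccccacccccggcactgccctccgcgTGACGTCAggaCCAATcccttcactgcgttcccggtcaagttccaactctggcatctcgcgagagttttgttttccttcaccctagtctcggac
Sf3b6: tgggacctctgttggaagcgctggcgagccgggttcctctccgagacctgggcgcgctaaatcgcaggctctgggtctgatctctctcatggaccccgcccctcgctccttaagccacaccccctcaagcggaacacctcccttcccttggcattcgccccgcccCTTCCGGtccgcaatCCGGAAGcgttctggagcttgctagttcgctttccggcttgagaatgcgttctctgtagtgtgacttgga
Prpf38b: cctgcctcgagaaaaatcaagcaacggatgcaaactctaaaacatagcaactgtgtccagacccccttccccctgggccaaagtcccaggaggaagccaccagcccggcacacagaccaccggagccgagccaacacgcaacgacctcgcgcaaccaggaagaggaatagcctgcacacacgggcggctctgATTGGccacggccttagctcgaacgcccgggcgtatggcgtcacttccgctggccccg
Sf3b3: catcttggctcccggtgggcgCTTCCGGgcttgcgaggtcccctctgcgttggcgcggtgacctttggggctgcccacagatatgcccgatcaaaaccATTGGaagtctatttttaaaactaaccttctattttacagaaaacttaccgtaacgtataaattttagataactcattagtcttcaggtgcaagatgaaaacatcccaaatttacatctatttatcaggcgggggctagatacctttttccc

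A promoter was found in the RefSeq table for 36 of the 45 members, and the motifs were chosen after the ratios had been seen. CCGGAAG or its reverse, CTTCCGG, stood in the 250 bases of 12 of the 36 members (33.3%), beside 10.2% of 17491 protein-coding genes. It was found in 3 of 10 lower, 6 of 20 middle and 3 of 5 higher members by brightest probe set, or 2 of 4 higher without Prpf4b. TGACGTCA was found in 3 of the 36 members (8.33%), Cdc5l among them, and in 2.20% of all genes. CCAAT or ATTGG was found in 17 of 36 members (47.2%) and 39.5% of all genes, in lower members such as Cdc5l and Prpf38b and in the higher member Sf3b3. These are matches of letters and not shown sites.

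The partners of the Prp19 complex, with activation and step 2 factors that are not members, included many lower genes. Their median was -0.70 over 32 measured genes, of which 17 (53.1%) passed 1.5-fold on the lower side and 1 on the higher, beside the 18.3% and 12.5% of all genes. Crnkl1, a scaffold of the complex, gave 307.3 and 72.2 units, 4.29-fold lower. Cwc15 gave 1453.8 and 348.7 units, 4.20-fold lower, and Snw1, which enters with the complex, 2256.4 and 564.6 units, 4.03-fold lower. At the other end were Xab2 at 0.67, Dhx35 at 0.49 and the helicase gene Dhx38 at 0.34. Of the 32 genes, 21 rest on 1 probe set, and the second brightest probe sets of the other 11 had a median of -0.32. Slu7, a step 2 factor, had all 4 measured probe sets between -2.07 and -1.0.

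**Figure D4:**
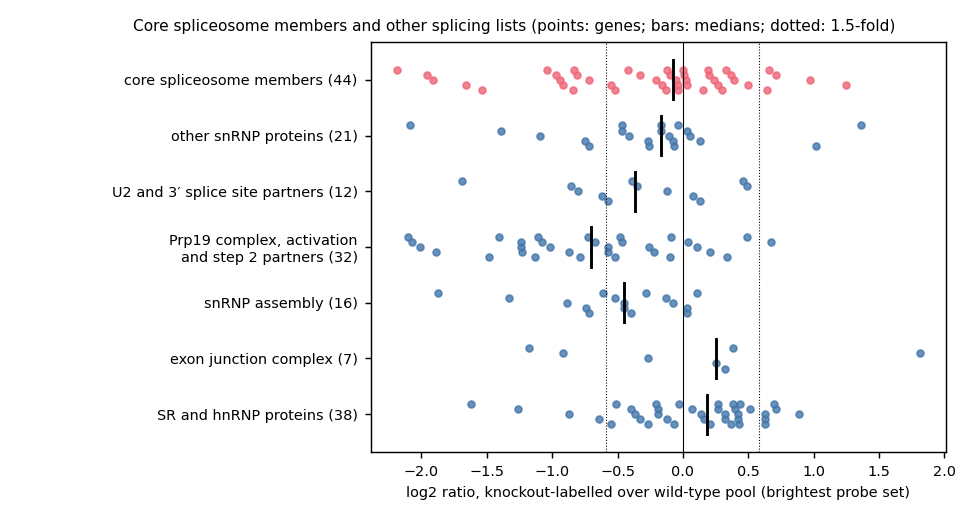
Log2 of knockout-labelled over wild-type signal (horizontal axis, brightest probe set) for the 44 members and the genes of 6 other splicing lists, with points for genes, bars for medians, dotted lines at 1.5-fold and the number of measured genes in brackets. The median of the Prp19 partners, -0.70, is the lowest, and those of the exon junction and the SR and hnRNP lists are above 0.

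In the other lists near the core the shares were smaller. Among snRNP proteins outside the rule the median was -0.17, and 5 of 21 were lower (23.8%) and 2 higher (9.52%), near the 18.3% and 12.5% of all genes. Snrnp27, a tri-snRNP protein, gave 5037.8 and 1195.4 units, 4.25-fold lower, with -2.23 by its other probe set. Zcrb1 and Snrnp25 of the minor spliceosome were 2.61-fold and 2.13-fold lower. Snrnp48, also of the minor spliceosome, had the highest ratio among genes measured on both arrays, 1.36, although another of its probe sets had -0.66. Ddx23, a helicase gene of U5, was under the floor in the wild-type pool, at 31.6 against 179.5 units, a difference of at least 2.77-fold. Snrnp70, the U1 protein that touches the first stem of the snRNA, was 2.03-fold higher, with 642.9 and 1317.1 units and 1.28 by its second probe set. Partners of U2 and the 3′ splice site had a median of -0.37 with 4 of 12 lower (33.3%) and 0 higher, and that median was 0.03 by second brightest probe sets. Htatsf1 was lowest at -1.69, with another probe set at 0.67, and Sf1, which reads the branch site before U2, was highest at 0.49 with all 5 of its probe sets positive.

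The genes of snRNP assembly had a median of -0.45, with 6 of 16 lower (37.5%) and 0 higher, beside the same 18.3% and 12.5% of all genes. Phax, the export adaptor of new snRNA, gave 1289.6 and 356.5 units, 3.65-fold lower. Nolc1 and Gemin5, the latter a snRNA-binding protein of the SMN complex, were 2.52-fold and 1.85-fold lower. Smn1, the centre of that complex, was 1.52-fold lower with 388.2 and 256.9 units. Prmt5, the methyltransferase of the Sm proteins, was within 1.5-fold at 1136.0 and 835.9 units, a ratio of -0.45. Wdr77, its partner, was the highest of the list at 0.11, with another probe set at -0.95.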

How the data were processed

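The authors deposited linear intensities on 2 arrays, and per the submitters' processing notes these came from GCOS, Affymetrix software. The sources used here do not give its version or signal algorithm. Without the top and bottom 2% of signals, both deposited arrays had a mean of 500.0, which shows a shared scaling. Per the labels' protocols, 5 micrograms of total RNA were labelled with biotin.

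Of 45037 probe sets other than 64 controls, 34945 had 1 gene symbol in the platform annotation, 932 had several and 9160 none. For 34741 the current symbol was taken from RefSeq by gene identifier. The floor was the 40th percentile of all signals, 64.2 units, and both arrays had to reach it for a measured value. Log2 ratios were centred on their median over these probe sets, 0.01, and the probe set of highest mean log2 signal stood for a gene. A gene below the floor on 1 array is given as a bound against the floor. With 1 array per group no test was made, and precision is limited by that number of arrays.

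The members and gene lists were chosen with earlier results of these data known. Members named in full are those at least 1.5-fold apart, those with all probe sets 1.5-fold apart in 1 direction, and the highest and lowest of each role group. Of other lists, up to 3 genes at either end are named. Slu7, Smn1, Prmt5 and Snrnp70, Mea1 and the promoter genes were named after their values were seen, as were further members named to complete a complex. So were Phf5a and the U5 and tri-snRNP genes named beside the Prpf genes.

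Functions were tested on simulated data for the wild-type against knockout-labelled comparison, with 12969 genes in the table. A simulated log2 shift of 1 was recovered as 1.04, -1 as -1.01, 2 as 1.95 and -2 as -1.93. Other settings were a floor at percentile 25 or 60 or none, other scaling (no centring, quantile, loess with fraction 0.3), another probe set for a gene, no suffixed probe sets and other membership rules. The tools were statsmodels 0.14.6, numpy 2.4.6, matplotlib 3.10.9, pandas 2.3.3 and scipy 1.17.1 under Python 3.11.15.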

Additional observations from a re-analysis of the deposited data

How the results depend on the processing

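The count of members at least 1.5-fold lower, 13 of 44, lay between 11 and 16 under all alternatives except second brightest probe sets, where it was 8 of the 29 genes that have one. The share of all genes moved too: 18.3% lower and 12.5% higher became 27.2% and 17.4% without a floor and 19.1% and 19.4% by second brightest probe sets, and 21.5% were lower with quantile normalization. The count of higher members, 5, was 6 of 29 by second brightest probe sets, 3 without a floor, 3 by the median of a gene's probe sets and 3 without suffixed probe sets. The members' median of -0.07 was -0.21 without a floor and 0.12 by second brightest probe sets. Of the 13 lower members, 10 stayed beyond 1.5-fold under every alternative that gave a value, and of the 5 higher members only Snrpf did. Of these, 4 of the 10 and Snrpf have 1 measured probe set, so a change of probe set could not move them. Leaving out Prpf4b and Prpf38a, or Cdc5l and Ik, was chosen after seeing the data. Prpf4b changed from 0.97 to -0.60 by the median of its probe sets and to -1.13 both by the second brightest and without suffixed probe sets. Prpf38a changed from -0.83 to 0.34 by the second brightest. The median of the 3 astrocyte markers changed from -1.13 to 0.34 by the second brightest. The cause of these changes was not tested, beyond the probe set used. Leaving out a replicate could not be done with 1 array per group. No paired analysis was possible because each group has 1 array. Detection calls were not used here, so signals near the floor are the least certain.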

Other observations

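The regulators that choose splice sites had few lower genes by count. Of 38 measured SR and hnRNP genes, 4 were at least 1.5-fold lower (10.5%) and 6 higher (15.8%), beside 18.3% and 12.5% of all genes, and their median was 0.18. Hnrnpa1, Hnrnph3 and Ptbp3 were the highest at 0.89, 0.71 and 0.70. The lowest was Hnrnpc, which packages nascent transcripts, with 7261.9 units in the wild-type and 2387.8 in the knockout-labelled pool and both measured probe sets lower, at -1.62 and -1.24. Srsf11 had -1.26 by its brightest probe set and 1.29 by another of its 4, and Srsf4 had -0.87 by its only probe set.

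Exon junction complex and associated genes had both extremes among 7 measured. Srrm2, a large protein of the splicing speckles, gave 705.8 and 2488.2 units, 3.50-fold higher, with 0.47 by its second probe set. Acin1 and Pnn were 2.26-fold and 1.90-fold lower, the former with another probe set at 0.12. The median of 0.25 turned to -0.11 by the median of each gene's probe sets and to -0.04 without a floor. Noncoding nuclear RNAs were higher in the knockout-labelled pool by brightest probe sets in 4 of 4 cases: Meg3 at 0.62, Malat1 at 0.87, Neat1 at 1.11 and Rian at 2.27. All 4 passed 1.5-fold, where 12.5% of all genes did. This list, too, was chosen with earlier results of these data known.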
